A study of Homo sapiens with 3 samples.

Results

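Oxidative phosphorylation genes were taken as the genes that carry an entry reading exactly "Oxidative phosphorylation" in the pathway names deposited with the expression table, which gave 114 of 15625 genes. Their products make up complexes I to IV of the respiratory chain, the ATP synthase (complex V) and the proton pump of acidic organelles (the V-ATPase), with a few pyrophosphatases and H+/K+ pumps beside them. RNA-seq libraries of HCT116 cells, a human colorectal cancer line, were compared between sh_circRAPGEF5 (2 libraries, called knockdown libraries 1 and 2), which received an shRNA against the circular RNA circRAPGEF5, and sh_control (1 library), which received a control shRNA. All 3 libraries are of the same line, are labelled genotype MT, and were collected after 36 or 48 h. Neither the harvest time of each library nor the meaning of MT is labelled, and the knockdown libraries may or may not be separate hairpins or cultures, so library, hairpin and time cannot be told apart. With 1 control library, the control has no SD.

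Complexes I and II pass electrons to ubiquinone, complex III passes them on to cytochrome c, and complex IV passes them to oxygen. Complexes I, III and IV pump protons, and complex V uses the proton gradient to make ATP. The V-ATPase runs the other way, spending ATP to acidify lysosomes, endosomes and the Golgi. It appears in the same annotated pathway and shares the rotary design of complex V. Subunits encoded by the mitochondrial genome were not analysed here, so every value below belongs to a nuclear gene.

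Levels are FPKM as the authors deposited them, that is, read fragments divided by gene length and by library depth. Depth, as the smallest whole reads that give the listed ratios, was 14832142 and 15758794 in the knockdown libraries and 14632390 in the control. Epithelial markers (7 of 8 in the table) summed to 2551 and 3881 FPKM in the knockdown libraries and 2285 FPKM in the control. Most of each sum came from KRT8, KRT18 and KRT19. CDH1, another of these markers, lay below the control in both, at 20.3 and 26.7 FPKM, against 33.1 FPKM. CDX2 lay on opposite sides, at 3.40 and 5.61 FPKM, against 4.24 FPKM in the control. EPCAM, the epithelial adhesion molecule, was at 170.0 and 191 FPKM in the knockdown libraries and 176 FPKM in the control, while VIL1, an intestinal brush border gene, did not exceed 0.01 FPKM. Fibroblast markers (3 of 6) summed to 4.71 and 8.49 FPKM in the knockdown libraries and 14.0 FPKM in the control, leukocyte markers (5 of 6) to 3.67 and 8.20 FPKM against 2.15 FPKM, most of it from CD68, and endothelial markers (2 of 4) to at most 0.216 FPKM in any library. PTPRC, which defines leukocytes, was at 0, 0.00901 and 0 FPKM in knockdown library 1, knockdown library 2 and the control.

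Of the 114 members, 104 had a mean of at least 1 FPKM over the 3 libraries and were tested. No member passed limma's test at an adjusted p of 0.05, against 2 higher genes (0.0178%) and 0 lower genes (0%) among the 11216 tested. At an unadjusted p under 0.05 were 6 of the 104 members (5.77%), against 7.07% of all tested genes. Both knockdown libraries lay above the control in 49 members and below it in 17, and they lay on opposite sides in 38. These are 47.1% and 16.3% of the tested members, against 31.7% and 37.6% of all tested genes. Most members are highly expressed, and among the 8198 genes with a mean of at least 5 FPKM the shares were 37.1% above and 32.8% below in both. The median log2 fold change of members, on the log2(FPKM + 1) scale, was 0.11 (0.20 and 0.07 in knockdown libraries 1 and 2), against -0.05 over all tested genes. Among genes with a mean of at least 5 FPKM, the medians were 0.12 for members and 0.02 over all genes. Quantile normalization brought the members to 38 above and 29 below, with medians of 0.05 for members and 0.01 over all tested genes. The shares of all tested genes on each side were not counted with this normalization, so these counts have no background beside them.

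On the log2(FPKM + 1) scale, at least 1.5-fold above the control in both knockdown libraries were 9 members (8.65%, against 5.52% of all tested genes), and 2 were as far below (1.92%, against 7.4%). The 9 were PPA1, ATP6V0C, NDUFA4, UQCR11, ATP5MC3, NDUFC1, NDUFA12, ATP6V1H and ATP6V1D. The 2 below were TCIRG1 and ATP6V1E2, both of the V-ATPase. At least 2-fold above in both were 3 members, PPA1, ATP6V0C and NDUFA4 (2.88%, against 1.21%), and 0 were 2-fold below (0%, against 1.7%). The 9 higher genes came from complexes I, III, IV and V, the V-ATPase and the pyrophosphatases, with at most 3 from any of them.

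**Figure D1:**
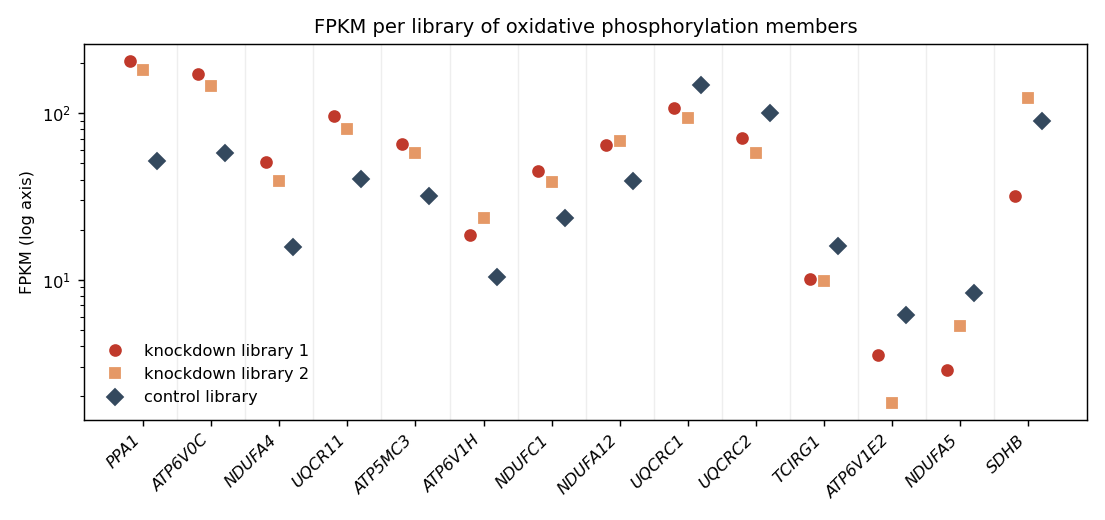
FPKM on a log axis in knockdown library 1 (circles), knockdown library 2 (squares) and the control library (diamonds) for 14 members. In the first 8 genes both knockdown libraries lie above the control, in the next 5 both lie below it, and for SDHB the knockdown libraries lie on opposite sides at 31.8 and 124 FPKM, against 90.4 in the control.

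PPA1 (Entrez 5464), the cytosolic inorganic pyrophosphatase, was the member farthest from the control. It had 206 and 182 FPKM in the knockdown libraries, against 51.6 FPKM in the control. Both knockdown values were more than 3 times the control, at ratios of 3.99 (95% counting interval 3.73 to 4.27) and 3.52 (3.30 to 3.77). The intervals are exact (Clopper-Pearson) ones on whole reads and cover counting error only. The log2 fold change was 1.89 ± 0.39 (SE), with a limma adjusted p of 0.312. PPA2, the mitochondrial pyrophosphatase, was at 19.7 and 22.9 FPKM in the knockdown libraries and 22.0 FPKM in the control, which lay between them. LHPP, a phosphatase annotated to the same step, was at 2.96 and 3.16 FPKM, against 4.42 FPKM in the control. The 3 pyrophosphatase genes therefore stood in 3 different positions, with PPA1 taking 91.3% and 88.8% of the summed PPA1 and PPA2 FPKM in the knockdown libraries and 70.1% in the control. The pyrophosphatases were singled out after their values were seen, and so were NDUFB6, NDUFB9, NDUFB10, UQCRHL, COX6A1, COX11, COX15, ATP6V0B, ATP6V0D1, ATP6V1A, ATP6V1D and ATP6V1E1 among the genes described next.

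In complex I (NADH dehydrogenase, 37 members, all tested), 19 members (51.4%) lay above the control in both knockdown libraries and 6 (16.2%) below in both. Over all tested genes the shares were 31.7% and 37.6%, and with a mean of at least 5 FPKM 37.1% and 32.8%. The median log2 fold change of complex I was 0.11 (0.23 and 0.16 in the knockdown libraries). The summed FPKM was 3032 and 3042 in the knockdown libraries and 2712 in the control, 1.12 times in each. This is the smallest spread between knockdown libraries of any complex sum. An exact permutation of the 3 libraries gave p = 0.333, two-sided, which is the smallest p that 1 library against 2 can give.

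NDUFC1, a small membrane arm subunit, led complex I at 44.8 and 38.6 FPKM in the knockdown libraries, against 23.6 FPKM in the control (log2 fold change 0.79 ± 0.40, SE, limma adjusted p 0.737). NDUFA12, an accessory subunit of the matrix arm that carries the NADH site, was at 64.4 and 68.3 FPKM, against 39.4 FPKM in the control (0.74 ± 0.39, adjusted p 0.758 by limma). For both genes the counting intervals of the ratio started above 1.4 in each library. NDUFB6, NDUFB10 and NDUFB9, all of the membrane arm, followed with log2 fold changes of 0.52, 0.46 and 0.43. At the other end stood NDUFA5, a matrix arm subunit, at 2.86 and 5.28 FPKM in the knockdown libraries and 8.29 FPKM in the control. Its value in knockdown library 1 was 0.345 times the control, the lowest ratio of any tested complex I gene. GENCODE lists 12 pseudogenes named after NDUFA5, so its level is uncertain.

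The 7 core subunits of the matrix arm carry the flavin and the iron-sulfur clusters. Of these, NDUFV2, NDUFS8 and NDUFS1 lay above the control in both knockdown libraries, with log2 fold changes of 0.42, 0.38 and 0.24. NDUFV1, which binds NADH and flavin, lay below in both, at 60.3 and 74.5 FPKM, against 94.5 FPKM in the control. Thus NDUFV1 and NDUFV2, neighbours in the module that oxidises NADH, stood on opposite sides. NDUFS3 and NDUFS7 were above the control in library 1 and below it in library 2. NDUFS3 was at 90.2 and 50.9 FPKM in the knockdown libraries and 82.0 FPKM in the control. The most abundant complex I message in the control, NDUFS5, was at 386 and 369 FPKM in the knockdown libraries and 362 FPKM in the control. The matrix arm accessory subunits had 6 of 9 (66.7%) above in both, and the membrane arm accessory subunits 9 of 20 (45%), with medians of 0.21 and 0.07. Of all tested genes, 31.7% lay above in both, and 37.1% of those with a mean of at least 5 FPKM.

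**Figure D2:**
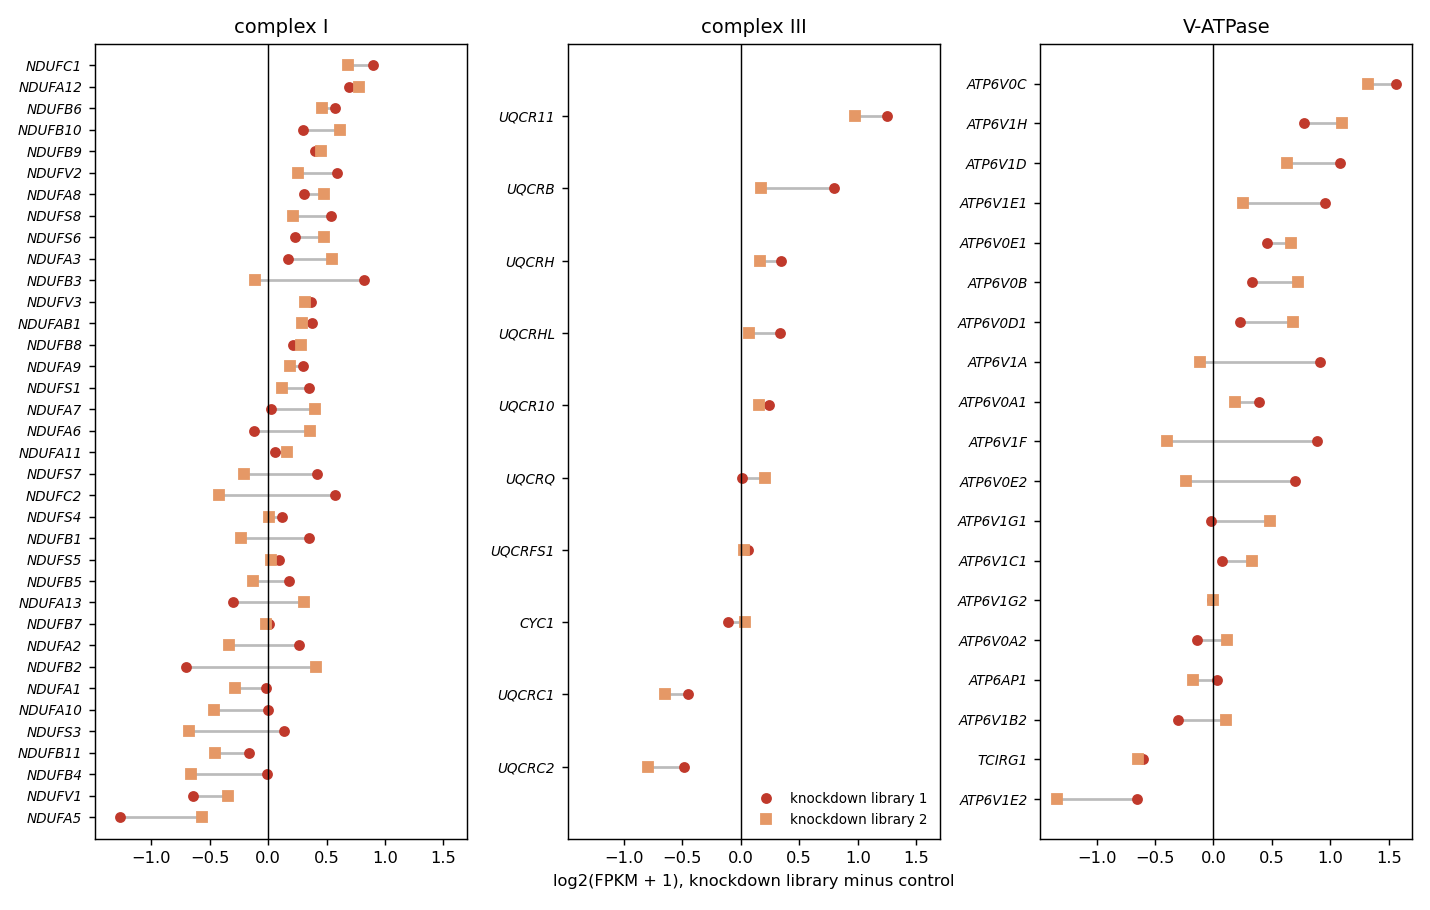
Difference of log2(FPKM + 1) from the control for the subunits reported of complex I, complex III and the V-ATPase, with knockdown library 1 as circles and knockdown library 2 as squares, sorted by the mean. In complex III the 6 small subunits lie above 0 in both libraries, UQCRQ by only 0.01 in knockdown library 1. The core proteins UQCRC1 and UQCRC2 lie below 0 in both. In the V-ATPase the values run between -1.34 for ATP6V1E2 and 1.56 for ATP6V0C.

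In complex II (succinate dehydrogenase, 4 members), 1 member (25%) lay above the control in both knockdown libraries, against 31.7% of all tested genes. The other 3 had the knockdown libraries on opposite sides. SDHB, its iron-sulfur subunit, had 31.8 FPKM in knockdown library 1 and 124 FPKM in knockdown library 2, against 90.4 FPKM in the control. Knockdown library 1 was thus at 0.352 times the control (counting interval 0.318 to 0.388) and knockdown library 2 at 1.37 times (1.28 to 1.47). SDHA, the flavoprotein, went the opposite way, at 49.6 and 30.6 FPKM in the knockdown libraries and 45.3 FPKM in the control. The membrane anchor SDHC was above the control in both, at 78.2 and 67.8 FPKM, against 47.2 FPKM in the control (log2 fold change 0.62 ± 0.39, SE, limma adjusted p 0.81). The other anchor, SDHD, was at 68.1 and 44.5 FPKM, against 46.0 FPKM. SDHB was thus the lowest of the 4 messages in knockdown library 1 and the highest in knockdown library 2 and the control.

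In complex III (the cytochrome bc1 complex, 10 members), the small subunits and the core proteins stood on different sides of the control. All 6 small subunits lay above the control in both knockdown libraries. UQCRQ did so narrowly in knockdown library 1, at 42.7 and 49.0 FPKM, against 42.3 FPKM in the control. Its counting interval in that library (0.927 to 1.10) included 1. Both intervals of UQCRHL (0.9996 to 1.64 and 0.819 to 1.36) also included 1. UQCRC1 and UQCRC2, the large core proteins on the matrix side, both lay below in both. The electron-carrying subunits CYC1 and UQCRFS1 were within 0.12 log2 units of the control in each library. Over the whole complex, 7 members (70%) lay above in both and 2 (20%) below, against 31.7% and 37.6% of all tested genes. The median log2 fold change of complex III was 0.16, and 0.0165 with quantile normalization. UQCR11, one of the small subunits, was at 96.5 and 80.0 FPKM in the knockdown libraries, against 40.1 FPKM in the control. Its log2 fold change was 1.11 ± 0.39 (SE) with a limma adjusted p of 0.61, and its ratios were 2.41 (2.15 to 2.70) and 1.997 (1.78 to 2.25). Another coding model of GENCODE shares its strand and exons, so its level is uncertain, as is that of NDUFC1, which overlaps MGARP. UQCRC1 was at 108 and 94.3 FPKM, against 148 FPKM in the control. UQCRC2 was at 71.4 and 57.4 FPKM, against 101 FPKM in the control. These core proteins had log2 fold changes of -0.55 ± 0.39 and -0.64 ± 0.40 (SE), with limma adjusted p of 0.831 and 0.809.

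The class sums are made from the same values, so they restate this contrast and add no separate support. Small subunits summed to 571 and 506 FPKM in the knockdown libraries and 419 FPKM in the control, while the core proteins summed to 179.7 and 152 FPKM, against 249 FPKM in the control. For the whole complex the sums were 908 and 829.5 FPKM, against 835 FPKM in the control (exact permutation p = 1, two-sided). UQCRB, which helps form the ubiquinone site, differed between the knockdown libraries, at 34.6 and 22.1 FPKM, against 19.5 FPKM in the control. UQCRH and its near-identical intronless copy UQCRHL had log2 fold changes of 0.25 and 0.20. Reads could be split between them, so UQCRHL adds no independent member to the 6.

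Promoter windows of RefSeq (GRCh38.p14, 250 bases before to 50 after the listed start) were found for 89 of the 114 members. They are shown for UQCR11, the small subunit of complex III farthest above the control, and for the core proteins UQCRC1 and UQCRC2. Windows of NDUFA12 of complex I, and of ATP6V0C and ATP6V1D of the V-ATPase, are shown too. Letters run 5′ to 3′ on the gene's strand, and capitals mark matches, on either strand, to CGCANGCG (the core of the site of nuclear respiratory factor NRF1), CCGGAAG (ETS factors, among them GABP), AAGATGGC (YY1), CACGTG (an E-box) or TCACGTGA (the core of the CLEAR element of lysosomal genes, which contains the E-box).
UQCR11, GRCh38.p14, chr19:1605413-1605712, minus strand: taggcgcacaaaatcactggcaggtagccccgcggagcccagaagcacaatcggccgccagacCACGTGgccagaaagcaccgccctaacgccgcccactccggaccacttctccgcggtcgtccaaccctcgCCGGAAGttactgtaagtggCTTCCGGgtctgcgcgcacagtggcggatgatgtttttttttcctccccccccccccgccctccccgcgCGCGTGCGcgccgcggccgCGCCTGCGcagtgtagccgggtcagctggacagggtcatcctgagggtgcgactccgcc
UQCRC1, GRCh38.p14, chr3:48609597-48609896, minus strand: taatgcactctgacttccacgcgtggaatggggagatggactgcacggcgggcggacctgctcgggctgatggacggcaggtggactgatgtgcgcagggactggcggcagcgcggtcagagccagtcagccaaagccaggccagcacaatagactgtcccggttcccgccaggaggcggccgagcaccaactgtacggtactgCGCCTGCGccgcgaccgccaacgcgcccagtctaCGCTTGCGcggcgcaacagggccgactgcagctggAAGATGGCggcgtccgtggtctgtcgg
UQCRC2, GRCh38.p14, chr16:21953111-21953410, plus strand: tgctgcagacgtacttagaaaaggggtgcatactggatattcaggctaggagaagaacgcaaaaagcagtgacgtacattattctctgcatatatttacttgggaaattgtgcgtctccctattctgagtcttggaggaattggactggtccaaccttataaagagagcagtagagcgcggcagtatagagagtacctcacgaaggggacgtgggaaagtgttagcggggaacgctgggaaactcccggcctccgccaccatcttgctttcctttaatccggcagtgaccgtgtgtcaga
NDUFA12, GRCh38.p14, chr12:95003648-95003947, minus strand: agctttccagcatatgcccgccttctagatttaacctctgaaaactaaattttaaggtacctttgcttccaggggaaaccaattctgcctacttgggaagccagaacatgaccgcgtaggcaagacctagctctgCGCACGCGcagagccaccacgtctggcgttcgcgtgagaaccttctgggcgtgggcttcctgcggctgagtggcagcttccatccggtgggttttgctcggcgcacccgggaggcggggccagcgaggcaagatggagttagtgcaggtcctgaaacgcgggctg
ATP6V0C, GRCh38.p14, chr16:2513476-2513775, plus strand: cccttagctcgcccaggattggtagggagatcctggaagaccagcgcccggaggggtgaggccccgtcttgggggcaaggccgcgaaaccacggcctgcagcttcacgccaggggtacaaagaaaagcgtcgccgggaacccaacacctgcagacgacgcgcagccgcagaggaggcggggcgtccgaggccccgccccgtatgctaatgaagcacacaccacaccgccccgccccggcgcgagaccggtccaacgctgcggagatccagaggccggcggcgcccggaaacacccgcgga
ATP6V1D, GRCh38.p14, chr14:67359755-67360054, minus strand: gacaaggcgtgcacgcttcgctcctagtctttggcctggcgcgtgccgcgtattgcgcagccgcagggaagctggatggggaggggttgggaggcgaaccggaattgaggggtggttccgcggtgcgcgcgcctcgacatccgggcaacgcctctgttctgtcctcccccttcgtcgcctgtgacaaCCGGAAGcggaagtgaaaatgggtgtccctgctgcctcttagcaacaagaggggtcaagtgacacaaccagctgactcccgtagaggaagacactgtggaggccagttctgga
UQCR11 held 2 NRF1, 2 ETS and 1 E-box matches, UQCRC1 held 2 NRF1 and 1 YY1 matches, NDUFA12 1 NRF1 match and ATP6V1D 1 ETS match. The UQCRC2 and ATP6V0C windows held none of these letters, and ATP6V0C has another listed start that was not searched. The window of NDUFC1, which led complex I, is not shown and held none of them either. No window was found for PPA1, NDUFA4, ATP5MC3 or ATP6V1H. The small subunits UQCR10, UQCRH and UQCRQ, also above the control in both knockdown libraries, have windows that are not shown. Of the letters searched, UQCR10 held only NRF1 letters, and UQCRH and UQCRQ only ETS letters, so UQCR11 does not stand for its class.

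The NRF1 letters were in 36.2% of the 69 windows of complexes I to V and in 31.2% of the 16 V-ATPase windows, against 19.9% of the 9116 windows of all tested genes. The ETS letters were in 31.9% and 12.5%, against 20.8%. The YY1 letters were in 17.4% and 0%, against 5.88%. The E-box was in 10.1% and 25%, against 10.5%, and the CLEAR core in 1.45% and 12.5%, against 2.07%. Over all 27305 windows the shares were 10.6% for NRF1, 10.7% for ETS, 3.03% for YY1, 7.43% for the E-box and 1.04% for CLEAR. Among members above the control in both knockdown libraries, 17 of 36 windows (47.2%) held NRF1 letters and 10 (27.8%) ETS letters. YY1 letters were in 6 (16.7%), an E-box in 7 (19.4%) and the CLEAR core in 2 (5.56%). Among members below in both, 4 of 16 (25%) held NRF1 letters, 3 (18.8%) ETS letters, 2 (12.5%) YY1 letters and 0 an E-box or the CLEAR core. The difference between these groups was not tested. These are counts of letters and not of bound sites.

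In complex IV (cytochrome c oxidase, 21 members, 16 tested), 6 members (37.5%) lay above the control in both knockdown libraries and 3 (18.8%) below. Over all tested genes the shares were 31.7% and 37.6%. The share above is near the 37.1% of genes with a mean of at least 5 FPKM. The median log2 fold change of complex IV was -0.06, the lowest of the complexes, with knockdown libraries 1 and 2 on opposite sides at 0.06 and -0.02. The summed FPKM was 2083 and 1924 in the knockdown libraries and 2027 in the control, which lay between them. NDUFA4, first counted with complex I and now known as a subunit of complex IV, stood apart. It had 51.3 and 39.3 FPKM in the knockdown libraries, against 15.8 FPKM in the control. Its ratios were 3.25 (2.95 to 3.60) and 2.49 (2.25 to 2.76), its log2 fold change 1.45 ± 0.40 (SE) and its limma adjusted p 0.494. Its paralog NDUFA4L2, known as a hypoxia-induced gene, was below the filter at 0.408 and 0.384 FPKM, against 1.03 FPKM in the control, from at most 5 reads per library.

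The abundant oxidase subunits stayed nearer the control. COX4I1, which binds ATP as a regulatory subunit and was the highest in the control, had 381 and 345 FPKM in the knockdown libraries and 373 FPKM in the control. COX6A1 lay above in both, at 358 and 341 FPKM, against 286 FPKM in the control (log2 fold change 0.29). COX6B1, which faces the intermembrane space and joins the oxidase dimer, lay below in both, at 189 and 237 FPKM, against 292 FPKM in the control (-0.46 ± 0.41, SE, limma adjusted p 0.867). Of the assembly factors in the pathway, the copper chaperone COX17 was above in both, at 27.1 and 33.3 FPKM, against 20.2 FPKM in the control. Its smallest possible reads were 102 and 133, against 75 in the control. The counting interval of its ratio in knockdown library 1 (0.986 to 1.83) included 1. The heme synthesis enzymes COX10 and COX15 and the copper factor COX11 lay on opposite sides. COX7A2L, which links complexes III and IV, was at 33.0 and 20.1 FPKM, against 32.4 FPKM in the control. Tissue-restricted isoforms were close to 0: COX4I2, COX6A2, COX6B2 and COX8C did not exceed 0.82 FPKM in any library.

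**Figure D3:**
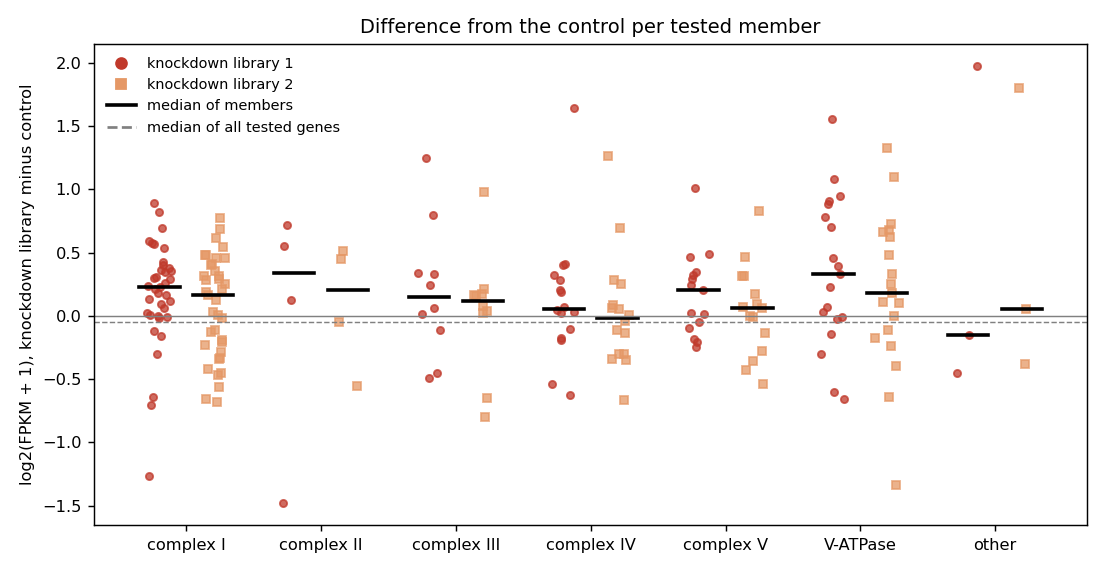
Difference of log2(FPKM + 1) from the control for every tested member, grouped by complex, with knockdown library 1 as circles, knockdown library 2 as squares, black bars for medians and a dashed line for the median of all tested genes. The medians of the 6 complexes lie above the dashed line in both libraries, single genes stand far above in complexes III, IV and V, and PPA1 is the point near 2 in the group named other.

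In complex V (ATP synthase, 15 members, all tested), 6 members (40%) lay above the control in both knockdown libraries and 2 (13.3%) below. Over all tested genes the shares were 31.7% and 37.6%. The share above is near the 37.1% of genes with a mean of at least 5 FPKM. The median log2 fold change of complex V was 0.03 (0.20 and 0.06), and turned to -0.05 with quantile normalization. Among the 5 subunits of the catalytic F1 head, ATP5F1D alone lay above in both, by 0.02 and 0.001 log2 units. ATP5F1B, the catalytic beta subunit and the most abundant member of all, had 685 and 444 FPKM in the knockdown libraries and 539.7 FPKM in the control, which lay between them. ATP5F1A, the alpha subunit, had 121 and 101 FPKM, against 102 FPKM in the control. Of the 3 other F1 messages, ATP5F1C and ATP5F1E also had the control between the knockdown libraries.

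The c ring of complex V is built from 3 genes, ATP5MC1, ATP5MC2 and ATP5MC3, whose mature proteins are the same. ATP5MC3 was at 65.1 and 57.3 FPKM in the knockdown libraries, against 31.8 FPKM in the control. Its log2 fold change was 0.92 ± 0.39 (SE), with a limma adjusted p of 0.671. ATP5MC2 lay below in both, at 39.8 and 34.0 FPKM, against 46.0 FPKM. ATP5MC1 lay on opposite sides, at 92.4 and 131 FPKM, against 105 FPKM. ATP5MC3 thus supplied 33.0% and 25.8% of the summed c ring FPKM in the knockdown libraries and 17.4% in the control, while the sum itself was 197 and 222 FPKM, against 183 FPKM in the control. On the peripheral stalk, ATP5PF (log2 fold change 0.40) lay above in both and ATP5PO (-0.30) below in both.

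The V-ATPase (22 members, 19 tested) had a median log2 fold change of 0.24, the highest of the complexes for the mean of both knockdown libraries. Within each library its median (0.33 and 0.18) was just under that of the 4 complex II genes (0.34 and 0.20). Of its tested members, 9 (47.4%) lay above the control in both knockdown libraries and 3 (15.8%) below. Over all tested genes the shares were 31.7% and 37.6%. The summed FPKM of the V-ATPase was 945 and 830.5 in the knockdown libraries and 622 in the control, ratios of 1.52 and 1.34. No other complex sum exceeded 1.17 times the control in either knockdown library. The exact permutation p was 0.333, two-sided, the smallest possible. Without ATP6V0C the sums were 773 and 684 FPKM in the knockdown libraries and 564 FPKM in the control, ratios of 1.37 and 1.21. ATP6V0C, a proteolipid of the membrane ring, was at 172 and 147 FPKM in the knockdown libraries, against 58.0 FPKM in the control.

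ATP6V0C had ratios of 2.98 (2.78 to 3.19) and 2.53 (2.36 to 2.71), a log2 fold change of 1.44 ± 0.39 (SE) and a limma adjusted p of 0.494. GENCODE lists 4 pseudogenes named after it and other coding models on its strand, so its level is uncertain. In the membrane sector V0, ATP6V0B, ATP6V0E1, ATP6V0D1 and ATP6V0A1 also lay above in both, with log2 fold changes of 0.53, 0.56, 0.45 and 0.29. In the ATP-hydrolysing sector V1, ATP6V1H, a regulatory subunit, was at 18.6 and 23.5 FPKM, against 10.4 FPKM in the control (0.94 ± 0.41, SE, limma adjusted p 0.692). ATP6V1D, of the central stalk, was at 36.7 and 26.5 FPKM, against 16.8 FPKM in the control, and overlaps EIF2S1 on the opposite strand. ATP6V1A, the catalytic subunit, was at 36.1 FPKM in knockdown library 1 and 17.3 FPKM in knockdown library 2, against 18.8 FPKM in the control. ATP6V1F split the same way, at 164 and 66.8 FPKM, against 88.3 FPKM in the control. The control thus lay between the knockdown libraries for both genes.

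Among V-ATPase isoforms, ATP6V1E2 and TCIRG1 lay below the control in both knockdown libraries, while their paralogs ATP6V1E1 and ATP6V0A1 lay above it. ATP6V1E1, the E subunit found in all tissues, was at 108 and 65.7 FPKM in the knockdown libraries, against 55.1 FPKM in the control. ATP6V1E2, its testis-type paralog, was at 3.52 and 1.82 FPKM, against 6.12 FPKM (log2 fold change -0.997 ± 0.47, SE, limma adjusted p 0.714). Its exons overlap RHOQ on the opposite strand, and the strand setting of the counting is not given in the sources used here. TCIRG1, the V0 a subunit best known from osteoclasts, was at 10.2 and 9.82 FPKM in the knockdown libraries, against 15.9 FPKM in the control. It supplied 25.5% and 25.7% of the summed a subunit FPKM in the knockdown libraries and 38.8% in the control. ATP6V0A1 supplied 54.6% and 48.9% in the knockdown libraries and 39.8% in the control, while the sum over the a subunits was 39.8 and 38.2 FPKM, against 41.0 FPKM. ATP6V0A2, a further paralog, lay on opposite sides, at 7.82 and 9.51 FPKM in the knockdown libraries and 8.72 FPKM in the control. Its shares were 19.6% and 24.9%, against 21.3% in the control. The renal isoforms ATP6V1B1 and ATP6V0A4 were under 0.8 FPKM in every library.

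**Figure D4:**
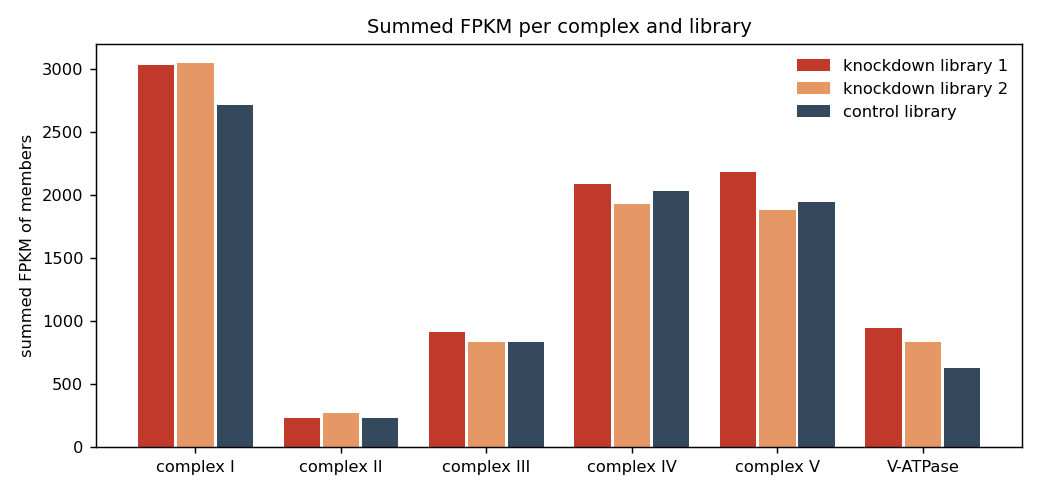
Summed FPKM of the members of each complex in knockdown library 1, knockdown library 2 and the control, with 1 bar per library and no error bar. The V-ATPase bars stand at 945 and 830.5 against 622, the complex I bars at 3032 and 3042 against 2712, and in the other complexes the control lies between the knockdown libraries.

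The genes that build and feed these complexes were counted from lists that hold no pathway member. Of 52 tested assembly factors, 28 (53.8%) lay above the control in both knockdown libraries and 8 (15.4%) below. Their median log2 fold change was 0.19. Over all tested genes the shares were 31.7% above and 37.6% below in both. They were 37.1% and 32.8% among genes with a mean of at least 5 FPKM. NDUFAF2, an assembly factor of complex I, was at 38.2 and 43.7 FPKM in the knockdown libraries, against 18.5 FPKM in the control. SCO2, which delivers copper to complex IV, was at 23.1 and 16.9 FPKM, against 8.01 FPKM. ATPAF1, which helps assemble the F1 head, was the lowest of the list by the nearer library, at 8.33 and 9.28 FPKM, against 17.1 FPKM in the control. Of 19 tested electron carrier and ubiquinone synthesis genes, 12 (63.2%) lay above in both and 2 (10.5%) below, with a median of 0.28. HCCS, which attaches heme to cytochrome c, led them at 10.8 and 11.5 FPKM, against 4.73 FPKM in the control. GPD2, which feeds electrons from glycerol phosphate, was at 15.4 and 28.8 FPKM, against 10.5 FPKM.

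Citric acid cycle enzymes had 7 of 13 (53.8%) above the control in both knockdown libraries and 2 (15.4%) below, with a median of 0.30. The shares over all tested genes were 31.7% and 37.6%. SUCLG2, a subunit of the GTP-forming succinyl-CoA ligase, was at 5.64 and 11.6 FPKM in the knockdown libraries, against 23.9 FPKM in the control. Of 17 tested regulators of mitochondrial biogenesis, 10 (58.8%) lay above in both and 2 (11.8%) below, with a median of 0.29. TFB2M, which starts mitochondrial transcription, was at 28.4 and 32.2 FPKM in the knockdown libraries, against 14.1 FPKM in the control. PPRC1, a coactivator related to PGC-1alpha, was at 36.6 and 41.9 FPKM, against 19.1 FPKM. NRF1 itself lay below in both, at 7.42 and 6.89 FPKM, against 9.87 FPKM in the control, and PPARGC1A did not exceed 0.03 FPKM. Supercomplex and cristae genes had 9 of 13 (69.2%) above in both and 2 (15.4%) below, with a median of 0.27. Among them PHB, the prohibitin scaffold, was at 260.5 and 299.6 FPKM, against 157 FPKM in the control. CHCHD3, a cristae organizer, lay on opposite sides at 13.3 and 42.4 FPKM, against 32.5 FPKM.

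Of 12 tested V-ATPase assembly genes and partners, 2 (16.7%) lay above the control in both knockdown libraries, 5 (41.7%) below and 5 on opposite sides. Over all tested genes 31.7% lay above and 37.6% below, so the share below is near that of all tested genes. The list had a median log2 fold change of -0.11 (-0.03 and -0.42 in the knockdown libraries), against -0.05 over all tested genes (-0.04 in each library). ROGDI, a partner of the V1 sector, was at 6.78 and 8.05 FPKM in the knockdown libraries, against 22.1 FPKM in the control. DMXL2, a rabconnectin that helps join V1 to V0, was at 5.72 and 6.10 FPKM, against 10.1 FPKM. No gene of the 6 lists passed limma's threshold, with the smallest adjusted p at 0.494 for ROGDI. The lists share the single control with the members, so they are not separate evidence of a direction.

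**Figure D5:**
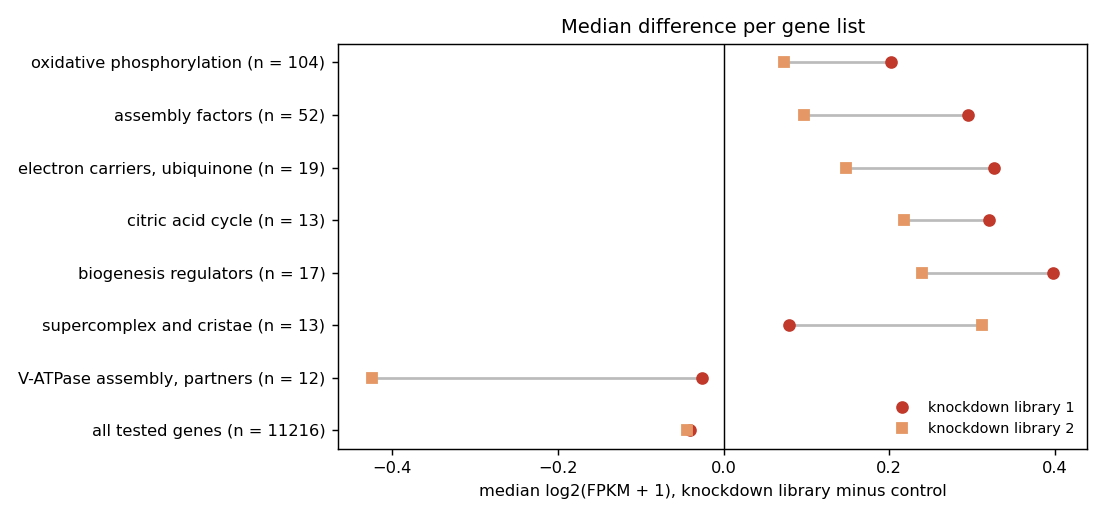
Median difference of log2(FPKM + 1) from the control over the tested genes of each list, with knockdown library 1 as circles and knockdown library 2 as squares. The pathway members and 5 of the related lists lie to the right of all tested genes in both libraries, and the V-ATPase assembly and partner list lies at -0.03 and -0.42.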

How the data were processed

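Messenger RNA of 3 HCT116 libraries was analysed from FPKM values that the authors deposited, with the pathway names (text) the authors deposited beside them. The submitters' processing notes name Trimmomatic, HISAT2 and GRCh38.p13. The sources used here do not give versions, counting program, strand setting or annotation. Members, lists and motif letters were chosen with earlier results of these data known, and complexes were set from textbook subunit roles.

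Genes with a mean of at least 1 FPKM were tested on log2(FPKM + 1), which understates changes of low genes, by limma 3.58.1 with trend in R 4.3.3 over 11216 genes with Benjamini-Hochberg adjustment. There was 1 residual degree of freedom, limma added 10.9 prior ones, and the lone control is assumed to vary like the knockdown libraries. On simulated data most 2-fold changes were missed and more calls were false than the nominal share, so a gene that is not called is not shown to be unchanged, and adjusted p-values may be too small. No label names separate cultures, so p-values measure only how far these libraries differ among themselves, possibly for technical reasons. In 100% of genes the listed values formed ratios of whole reads (relative tolerance 1e-09). Any factor common to the libraries is lost, so read numbers are the smallest possible.

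Named members are, per complex, the 2 highest and 2 lowest by the knockdown library nearer the control, the highest in the control, the one differing most between knockdown libraries, core and catalytic subunits and isoform pairs, and the 2 farthest genes of each other list, except a few not reported here. The alternatives tried changed the pseudocount (0.1 or 5), the filter (none, or a mean of at least 5 FPKM), the scaling (median ratio or quantile), limma's variance model (no trend, robust, 5 prior degrees of freedom) and the knockdown libraries kept.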

Additional observations from a re-analysis of the deposited data

How the results depend on the processing

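No member passed limma's threshold under any of the 9 alternative fits. The smallest adjusted p of a member ran between 0.218 (PPA1, pseudocount of 5) and 0.924 (ATP5MC3, 5 prior degrees of freedom). Genes called higher in the whole table, 2 as reported, were 1 with a pseudocount of 5, without the trend and with robust fitting, and 0 with no filter, with quantile normalization and with 5 prior degrees of freedom. With quantile normalization, members below the control in both knockdown libraries were 29 against 17, and the medians were 0.0665 for complex I, -0.12 for complex II and 0.0165 for complex III. Median-ratio rescaling gave 0.20 for the median of complex III and 0.21 for the log2 ratio of the summed FPKM of complex I, which was 0.18 without NDUFS5. Without SDHB the log2 ratio of the complex II sum was 0.29, and without ATP6V0C, chosen after seeing the data, that of the V-ATPase sum was 0.37 against 0.51. Leaving out a gene sums fewer genes, and the cause of the other shifts was not tested. Without knockdown library 1, 63 members lay above the control and 41 below, and without knockdown library 2, 73 above and 31 below, since a single library then sets the side. The matching shares of all tested genes were not counted for these omissions or for quantile normalization. Leaving out each in turn, the medians ran from 0.16 to 0.23 for complex I, 0.20 to 0.34 for complex II, 0.12 to 0.15 for complex III, -0.0157 to 0.0572 for complex IV and 0.0587 to 0.20 for complex V. With 1 library per group these are values with no test. Of 50 named members tested, 8 turned direction in at least 1 of the 9 alternative fits. Leaving out a knockdown library is outside this count. One or the other omission turns every gene whose knockdown libraries lie on opposite sides of the control, as for ATP5F1B and COX10. ATP5F1B went from 0.03 to -0.28 without knockdown library 1, and COX10 from 0.05 to -0.18 without knockdown library 2. Median-ratio rescaling turned ATP5F1C (0.0317), ATP6V0A2 (0.0252), COX4I1 (0.00348) and CYC1 (0.00711), and quantile normalization ATP5F1D (-0.15), ATP5F1E (-0.11), ATP5MC1 (-0.0544), ATP6V0A2 (0.0499), COX4I1 (0.0426) and UQCRFS1 (-0.0342). No paired analysis was possible because the control has 1 library and no replicate number. Of 114 members, 32 share exon sequence with a coding gene on the opposite strand and 22 with one on the same strand. NDUFS3, SDHD, COX6A1 and COX17 are among the 22. In GENCODE, 51 members have pseudogenes named after them, among them ATP5MC1 with 7. These overlaps and copies limit single values.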
